A study of Mus musculus with 6 samples.

Results

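Collagen chain genes are described here in mouse heart ventricles after deletion of the transcription factor gene Tead1 in cardiomyocytes. The members are all genes whose symbol is Col, a number, the letter a and a number, 44 by the RefSeq annotation of GRCm38.p6. Of these, 42 had a matching probe by RefSeq accession, out of 20145 genes named on the array, and 27 were bright enough to be tested. Col6a3 and Col12a1 had no matching accession. The 42 genes had 61 probes, and 14 genes had more than 1.

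The tested hearts came from 3 Tead1 icKO mice with floxed Tead1 alleles (Tead1F/F) and Myh6-CreER, a Cre recombinase that cardiomyocytes make and tamoxifen activates. The controls were 3 Tead1 flox mice that also received tamoxifen, and the labels name no Cre for them, so an effect of Cre itself cannot be told apart from that of losing Tead1. All 6 were C57bl/6j males of 11 to 12 weeks, with 1 single-colour Agilent array per heart ventricle sample. How long after tamoxifen the hearts were taken is not stated in the labels.

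Collagens are secreted proteins in which 3 chains wind into a triple helix, and their genes fall into classes by how the molecules assemble. Fibrillar collagens form the tensile fibres of the heart's interstitium, and FACIT collagens attach to the surface of such fibres. Basement membrane collagens (type IV) form sheets around each cardiomyocyte and vessel, network collagens form hexagonal lattices, and transmembrane collagens are anchored in the cell surface. In the heart, fibroblasts are the main source of fibrillar collagen, and the floxed gene was targeted in cardiomyocytes.

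The 6 arrays shared 1 slide and 1 scan. Between 47.7% and 50.9% of probes were well above background on each array, no spot was saturated, and the number of arrays limits the precision. The 75th percentile of raw signal was 292 to 348 on icKO arrays and 189 to 233 on control arrays, so scaling matters. Signals are given below as log2 of the processed signal minus the array's own 75th percentile, so that 0 is the 75th percentile of that array. Levels are not comparable between probes, and each difference below is icKO minus control. The Tead1 probe read 3.66, 3.44 and 3.46 on icKO arrays and 4.01, 3.79 and 3.96 on control arrays (difference -0.40 ± 0.11, SE, n = 3 and 3; limma adjusted p = 0.0300). Median scaling (-0.24) ended that call, as did slide row as a block (adjusted p = 0.0631), the replicate block (0.0509), no filter on dim probes (0.122), a minimum fold change of 1.5 and leaving out icKO replicate 2 or 3 or control replicate 1 or 3, and spike-in scaling gave 0.023. Where that probe lies relative to the deleted part is not known here, so it does not check the labels. Ventricle muscle markers were bright on all arrays. Over 7 cardiomyocyte genes the summed level, in multiples of the 75th percentile, was 4294 to 4722 in icKO and 6367 to 7892 in control hearts. Of the 7, 6 were lower in icKO, against 4 with median scaling, 2 with quantile normalization and 1 with spike-in scaling. Among all 22278 features 28.7% were lower. The number lower was 3657 with median scaling, 5293 with quantile normalization and 1777 with spike-in scaling. In whole tissue, fewer cells of a type and less RNA per cell cannot be told apart.

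Most tested collagen genes were higher in icKO hearts. Of 27, 21 rose and none fell (limma, Benjamini-Hochberg adjusted over 22278 features, threshold 0.05), and the median difference was 1.11. With dim probes kept, 15 of all 42 with a probe were called higher, and the median over the 42 was 0.60. Among all features 44.8% were called, 16.0% higher and 28.7% lower, with a median difference of -0.14, and among named genes 20.3% were higher. All 3 icKO arrays lay above all 3 control arrays for 22 of the 27 collagens, and below them for none, against 21.6% of features above and 37.7% below. The filter favours such genes: 6 of the 27 stood on a probe above background on every icKO array and not on every control array, and 5 of these rose. Of these 6, Col4a6 also had a probe above background on all 6 arrays. Of the 21 whose probe used was above background on all 6 arrays, 16 rose. With only such probes kept, 16 of 22 collagens rose, where 16.1% of features were higher. The 21 genes that rose were not spread evenly over the arrays. Control replicate 2 was the lowest control for 17 of them and icKO replicate 2 the highest icKO array for 15. Leaving out either of these arrays left 18 called higher. The slide held 2 rows and 3 columns with the groups partly mixed. For each of the 21, all icKO arrays lay above all control arrays. Their differences within any row or column that held both groups therefore had to be positive, which is no test of slide position. The median differences of the 27 were 1.1 within row 1 (1 icKO and 2 control arrays) and 1.28 within row 2 (2 and 1). Within column 2 (1 and 1) the median was 0.87.

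**Figure D1:**
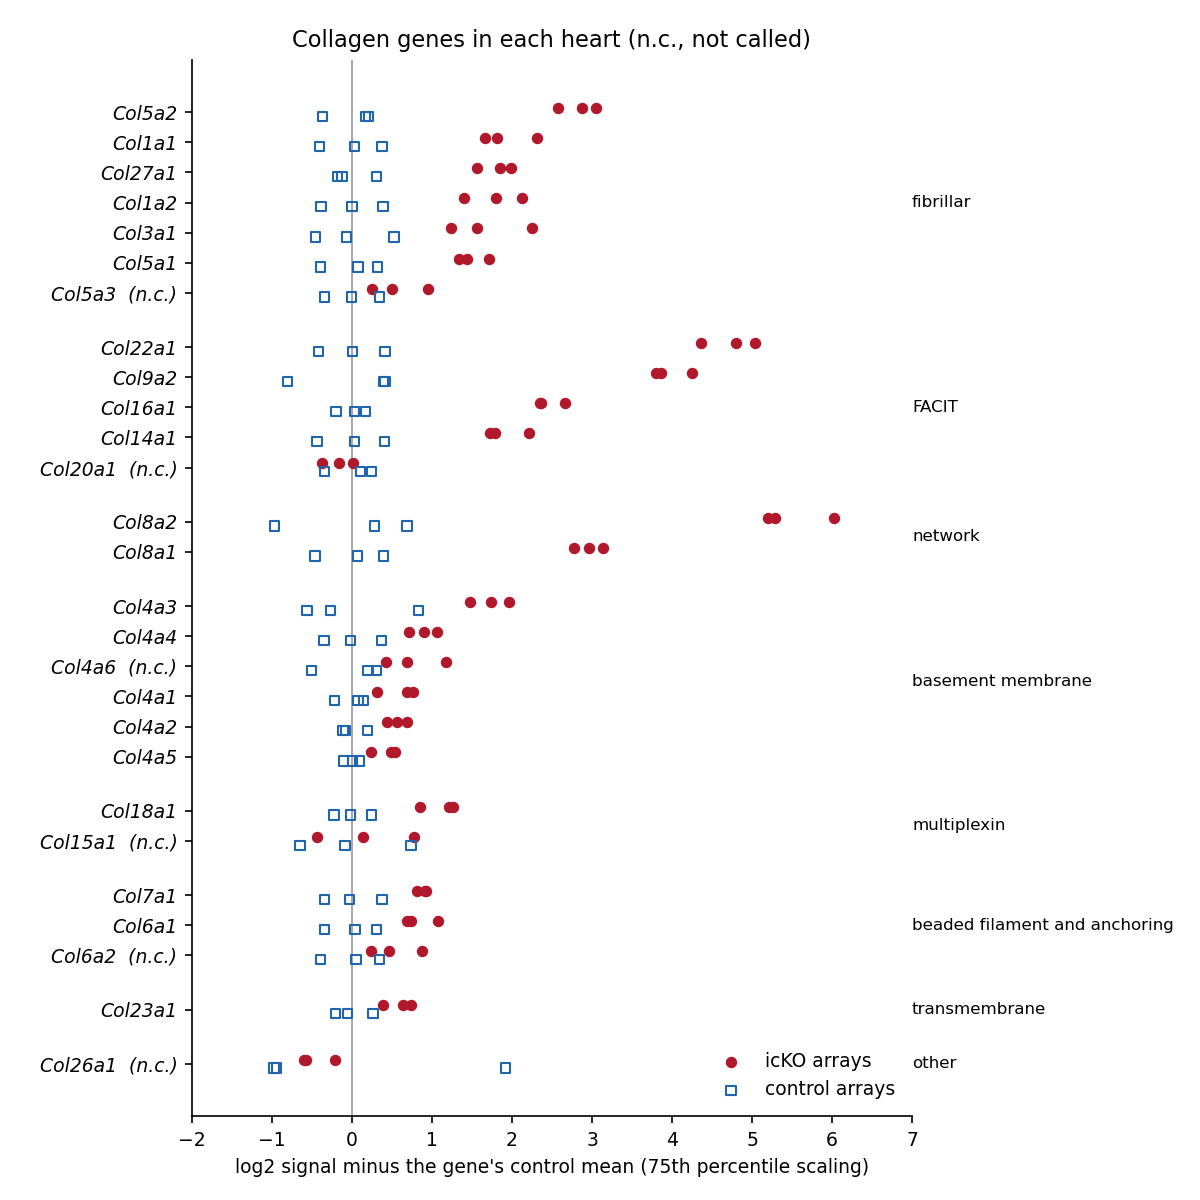
Log2 signal of each tested collagen gene on each array, relative to that gene's control mean, by class. Filled circles are the 3 icKO arrays and open squares the 3 control arrays. The icKO values of Col8a2, Col22a1 and Col9a2 lie furthest to the right, those of the type IV chains lie nearer to controls, and Col15a1, Col20a1, Col26a1, Col5a3 and Col6a2 overlap.

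The fibrillar class made up of types I, III, V and XXVII rose by a median of 1.78, with 6 of 7 tested genes higher. Col1a1, the major chain of type I collagen, read 5.09, 5.60 and 4.94 in icKO hearts, against 3.66, 2.88 and 3.31 in controls. Its partner Col1a2 read 7.12, 7.44 and 6.72 in icKO hearts, against 5.70, 4.93 and 5.31 in controls. The groups did not overlap for either chain, and the differences were 1.93 ± 0.25 and 1.78 ± 0.26 (SE; adjusted p = 0.00201 and 0.00277). Col3a1 forms type III collagen, which is mixed into type I fibres. It read 5.28, 5.98 and 4.96 in icKO and 4.24, 3.27 and 3.65 in control hearts (1.69 ± 0.34; adjusted p = 0.00886), with icKO replicate 2 the highest and control replicate 2 the lowest.

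Type V collagen sits inside type I fibres and sets their diameter. Its 3 chains had differences of unlike size, but neither Col5a2 nor Col5a3 passed against Col5a1 (exact permutation p = 0.1 each). With 3 arrays per group no smaller p was possible. Col5a2 read 0.50, 0.68 and 0.21 in icKO and -2.17, -2.74 and -2.21 in control hearts, a rise of 2.83 ± 0.20 (adjusted p = 0.000313), or 1.80 with normexp background correction. Col5a1 read 2.87, 3.25 and 2.97 in icKO and 1.85, 1.14 and 1.61 in control hearts, a rise of 1.5 ± 0.20 (adjusted p = 0.00231). Col5a3, the chain of more restricted expression, read 1.72, 2.42 and 1.98 in icKO and 1.82, 1.13 and 1.47 in control hearts. These overlapped, and the difference of 0.57 ± 0.24 did not pass (adjusted p = 0.0984), although it did with spike-in scaling (0.99), normexp (0.60) and slide row as a block (0.75). Col27a1, a fibrillar collagen best known from cartilage, read -1.54, -1.68 and -1.96 in icKO and -3.71, -3.65 and -3.22 in control hearts (1.80 ± 0.18; adjusted p = 0.000794). Only 1 of its 3 control arrays was above background, so the size is uncertain, and normexp gave 0.38. The cartilage and other fibrillar genes Col2a1, Col11a1, Col11a2 and Col24a1 were not well above background on all arrays of either group and were not tested.

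Both tested network genes rose. Col8a1 and Col8a2 encode type VIII collagen, a short-chain collagen known from the matrix beneath endothelium. Col8a2 read 0.41, 1.24 and 0.50 in icKO hearts and -4.10, -5.76 and -4.51 in control hearts. No control array was above background, so the change is given as a bound, which rests on the detection limit used. By it, icKO was at least 20.1-fold brighter, or 16.7-fold without icKO replicate 2 (limma adjusted p = 0.000471 with all arrays). Col8a1 read 1.40, 1.76 and 1.58 in icKO and -0.98, -1.84 and -1.31 in control hearts, all above background, a rise of 2.96 ± 0.23 (adjusted p = 0.000383). A dimmer second Col8a2 probe was above background on 2 icKO arrays and no control array. It was at least 1.26-fold brighter in icKO, with a log2 difference of 1.21. Col10a1, the collagen of hypertrophic cartilage, was well above background on none of the 6 arrays.

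FACIT collagens gave 4 rises among 5 tested genes, with a median of 2.46 over the tested genes and 0.87 over all 8 with a probe when dim probes were kept. Col22a1, known from myotendinous junctions, read 0.53, 1.21 and 0.98 in icKO hearts and -3.82, -3.42 and -4.25 in controls. None of the control arrays was above background. By the same limit icKO was at least 22.7-fold brighter, or 20.4-fold without icKO replicate 2 (limma adjusted p = 0.000168 with all arrays). Col9a2 encodes a chain of type IX collagen, which coats cartilage fibrils. It read 0.63, 0.24 and 0.18 in icKO and -3.23, -4.43 and -3.21 in control hearts (3.97 ± 0.35; adjusted p = 0.000556), with 2 of 3 control arrays above background. Its partner chains Col9a1 and Col9a3 were not well above background on any of the 6 arrays. Normexp correction, which adds an offset of 50 to every signal, gave 2.65 for Col8a2, 2.60 for Col22a1 and 2.13 for Col9a2, and each was still called.

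Col16a1, which is made by fibroblasts and smooth muscle, read 4.07, 4.38 and 4.07 in icKO and 1.88, 1.52 and 1.75 in control hearts (2.46 ± 0.14; adjusted p = 0.000185). A second probe differed by 2.48, and another was at background on all control arrays, at least 1.43-fold brighter in icKO. Col14a1, a FACIT of mature fibrils, read 1.59, 2.03 and 1.54 in icKO and 0.22, -0.63 and -0.16 in control hearts (1.91 ± 0.24; adjusted p = 0.00184), and its other probe gave 1.95. Col20a1 did not pass. It read -2.33, -1.94 and -2.11 in icKO and -1.71, -1.85 and -2.30 in control hearts (-0.17 ± 0.19; adjusted p = 0.475), its other probe gave 0.38, and the sign turned when its probes were averaged (0.10) and under spike-in scaling (0.25). Col19a1 was at background throughout.

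**Figure D2:**
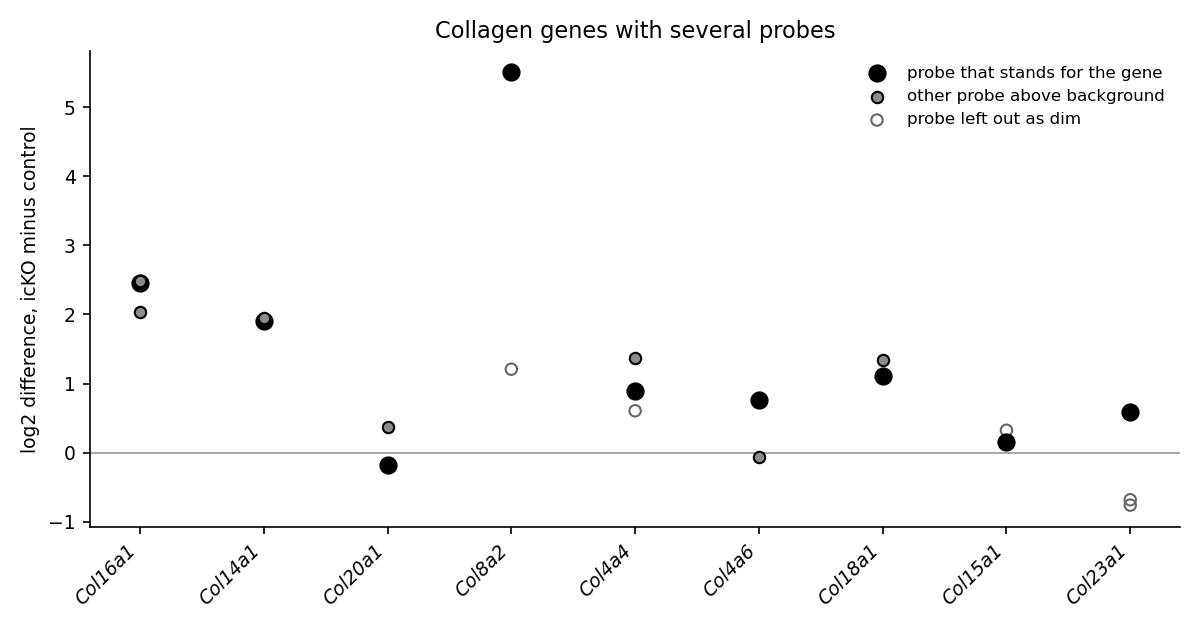
Log2 difference (icKO minus control) of each probe for the tested collagen genes that have several probes. Large filled circles are the probes that stand for the genes, small filled circles other probes above background and open circles probes left out as dim. The 2 bright probes of Col14a1, and those of Col18a1, lie close together, while those of Col4a6 and Col20a1 lie apart. For Col8a2 and Col23a1 the 1 bright probe lies apart from probes left out as dim.

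Type IV collagen of the basement membrane changed by smaller amounts, with 5 of 6 chains higher and a median of 0.68. Col4a1 and Col4a2 form the common type IV molecule of nearly all basement membranes. Col4a1 read 5.20, 5.13 and 4.75 in icKO and 4.51, 4.22 and 4.58 in control hearts (0.59 ± 0.16; adjusted p = 0.0269). Col4a2 read 5.21, 5.09 and 4.96 in icKO and 4.41, 4.44 and 4.72 in control hearts (0.57 ± 0.13; adjusted p = 0.0132). The groups came close to each other for both chains without overlapping. The Col4a1 call was lost without icKO replicate 1 (0.50), icKO replicate 2 (0.54), control replicate 1 (0.63) or control replicate 2 (0.48), and spike-in scaling gave 1.01 for Col4a1 and 0.99 for Col4a2. With no filter on dim probes the calls of Col4a1 and Col4a2 were both lost (limma adjusted p = 0.0980 and 0.0622).

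The chains of the specialised type IV molecules were uneven. Col4a3, best known from kidney and lung, read -1.62, -1.39 and -1.88 in icKO and -2.52, -3.92 and -3.63 in control hearts (1.73 ± 0.36; adjusted p = 0.0107). With 2 of 3 controls above background its size is uncertain, and normexp gave 0.65. Its partner Col4a4 read 0.99, 1.35 and 1.19 in icKO and 0.65, -0.06 and 0.26 in control hearts (0.89 ± 0.20; adjusted p = 0.0135), and a second bright probe gave 1.37. Col4a5 read 1.38, 1.69 and 1.63 in icKO and 1.24, 1.05 and 1.15 in control hearts (0.42 ± 0.12; adjusted p = 0.0303), which no longer passed without icKO replicate 2 (0.36) or 3 (0.39) and without control replicate 2 (0.37) or 3 (0.42), and 0.84 with spike-in scaling. Col4a6 read -2.27, -1.52 and -2.01 in icKO and -2.39, -3.20 and -2.50 in control hearts, which did not pass (0.76 ± 0.28; adjusted p = 0.0650). It was called with spike-in scaling (1.18) and with slide row as a block (0.99), and its second probe, above background on all 6 arrays, gave -0.065.

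The remaining classes had few tested members. Col18a1, the source of endostatin, read 0.99, 1.35 and 1.40 in icKO and 0.38, -0.09 and 0.12 in control hearts (1.11 ± 0.17; adjusted p = 0.00346), with 1.33 from its other probe. Col15a1, the related multiplexin of muscle and vessel basement membranes, read -1.93, -0.72 and -1.36 in icKO and -0.76, -2.14 and -1.58 in control hearts. These overlapped (0.16 ± 0.43; adjusted p = 0.787). Col6a1 of the beaded microfilaments that surround muscle fibres read 4.83, 5.17 and 4.78 in icKO and 4.40, 3.75 and 4.13 in control hearts (0.84 ± 0.20; adjusted p = 0.0156), or 1.26 with spike-in scaling. The Col6a1 call was lost with no filter on dim probes (limma adjusted p = 0.0616), with the replicate block (0.0510) and with a minimum fold change of 1.5. Col6a2 read 2.07, 2.71 and 2.29 in icKO and 2.18, 1.43 and 1.88 in control hearts, which overlapped (0.53 ± 0.24; adjusted p = 0.121). It was called with normexp (0.56), spike-in scaling (0.95) and slide row as a block (0.71). Col7a1, which forms the anchoring fibrils of skin, read -0.42, -0.52 and -0.41 in icKO and -1.68, -1.37 and -0.96 in control hearts (0.89 ± 0.18; adjusted p = 0.0104), or 0.53 with normexp.

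Of the 4 transmembrane genes, Col23a1 was tested. It read -2.42, -2.31 and -2.66 in icKO and -2.79, -3.26 and -3.11 in control hearts (0.59 ± 0.16; adjusted p = 0.0251). The call was lost with normexp (0.05), with trend and robust eBayes (adjusted p = 0.0563), without icKO replicate 1 (0.57) or 2 (0.51), and without control replicate 2 (0.49) or 3 (0.56). Spike-in scaling gave 1.01, and 2 dim probes gave -0.76 and -0.68. Col26a1 read -2.39, -2.03 and -2.41 in icKO and -2.76, -2.78 and 0.11 in control hearts. Control replicate 3 stood far above the rest, and the difference of -0.47 ± 0.77 (adjusted p = 0.646) was 0.49 without it. In all, 15 genes with probes were not well above background on all arrays of either group, and 7 of them were above background on at least 1 array. Col17a1 read -0.91, -6.04 and -5.66 in icKO and -5.61, -5.56 and -5.94 in control hearts, above background on icKO replicate 1 alone. Col28a1 read -5.54, -0.80 and -5.66 in icKO and -5.52, -5.35 and -5.87 in control hearts, above background on icKO replicate 2 alone. With no filter on dim probes, none of the 15 was called, 6 differences were positive and their median was -0.20.

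The class medians over tested genes ran from network (4.23) through FACIT (2.46), fibrillar (1.78) and the beaded filament and anchoring class (0.84) to basement membrane (0.68), against -0.14 over all features. With Col8a2 and Col22a1 at their lower bounds the network median was 3.64, and the others were as given. That order changed with other choices. With no filter on dim probes the FACIT median over its 8 genes with a probe was 0.87, under the fibrillar 1.5, and the beaded filament and anchoring median was 0.61. Normexp gave 0.56 for that class and 0.67 for basement membrane, and without control replicate 1 they were 0.72 and 0.77. Median scaling added 0.16 to every difference and spike-in scaling 0.42, and with spike-in scaling the basement membrane median was 1.1. Within the classes, the 6 fibrillar genes called spanned 1.5 to 2.83. The FACIT genes called spanned 1.91 to 3.97 beside the bound for Col22a1. The 5 basement membrane genes called spanned 0.42 to 1.73. The classes hold few tested genes each, from 1 to 7, and differences between them were not tested. The scaling does shift the balance over all features: the higher share of calls was 35.8% here, against 54.6% with median, 43.5% with quantile and 79.7% with spike-in scaling. Among the collagens, 21 were higher under median and quantile scaling and 24 under the spike-in one, and none was lower in any of the 3.

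**Figure D3:**
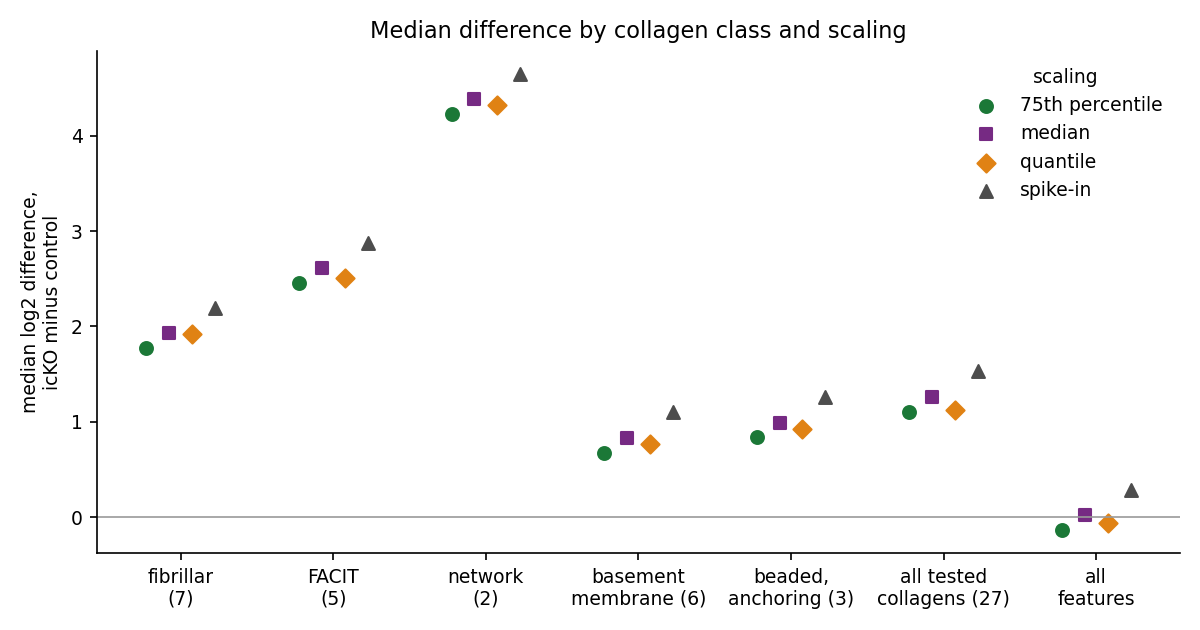
Median log2 difference (icKO minus control) of the tested genes in 5 collagen classes, of all tested collagens and of all features, under 4 scalings between arrays. The number of genes is under each name, and each symbol is 1 scaling. The network and FACIT medians are the highest and the basement membrane median the lowest of the 5 under each scaling, and all lie above that of all features. Median and spike-in scaling move every median by 1 shared amount each.

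Chains that assemble into 1 molecule were compared within each array, where scaling by 1 value per array cancels. Of 13 listed pairs, 9 had both chains tested, and with 3 arrays against 3 the smallest p of the exact two-sided permutation test is 0.1. The difference of Col8a2 exceeded that of Col8a1 by 2.55 ± 0.31 (SE), and that of Col5a2 exceeded that of Col5a1 by 1.33 ± 0.13. Col5a3 differed by -0.93 ± 0.10 relative to Col5a1, and Col4a5 and Col4a4 by -1.31 ± 0.41 and -0.83 ± 0.27 relative to Col4a3. Col6a2 differed by -0.31 ± 0.10 relative to Col6a1. In these 6 pairs the arrays of the groups did not overlap (exact p = 0.1 each, 0.15 after adjustment over the 9 pairs). Among all single features, 21.6% lay apart above and 37.7% below, and no such share was computed for other pairs of genes. Pairs that share a partner are not independent. Since Col8a2 was not above background in controls, its difference is uncertain in size, and normexp gave 0.32, with 0.30 for Col5a2 against Col5a1. Col4a3 was above background on 2 of 3 control arrays, so both differences relative to it are uncertain in size too. With normexp Col4a5 against Col4a3 was -0.20 and Col4a4 against Col4a3 turned to 0.18.

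The remaining 3 pairs overlapped between groups. Col1a2 differed by -0.15 ± 0.08 relative to Col1a1 (exact p = 0.2), or -0.06 with quantile normalization, an alternative chosen after seeing the data. All 9 pairs kept their sign under it. Col4a6 differed by 0.34 ± 0.25 relative to Col4a5 (exact p = 0.4), or -0.070 with the mean of the probes. Col4a2 differed by -0.02 ± 0.12 relative to Col4a1 (exact p = 0.9). Col4a1 and Col4a2 are neighbours on chromosome 8, transcribed away from each other. Their RefSeq starts lie at 11312826 on the minus strand and 11312805 on the plus strand (GRCm38.p6), so that the first 22 bases of both transcripts overlap. Col4a6 and Col4a5 are likewise divergent on the X chromosome, with 1342 bases between the starts in that table.

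**Figure D4:**
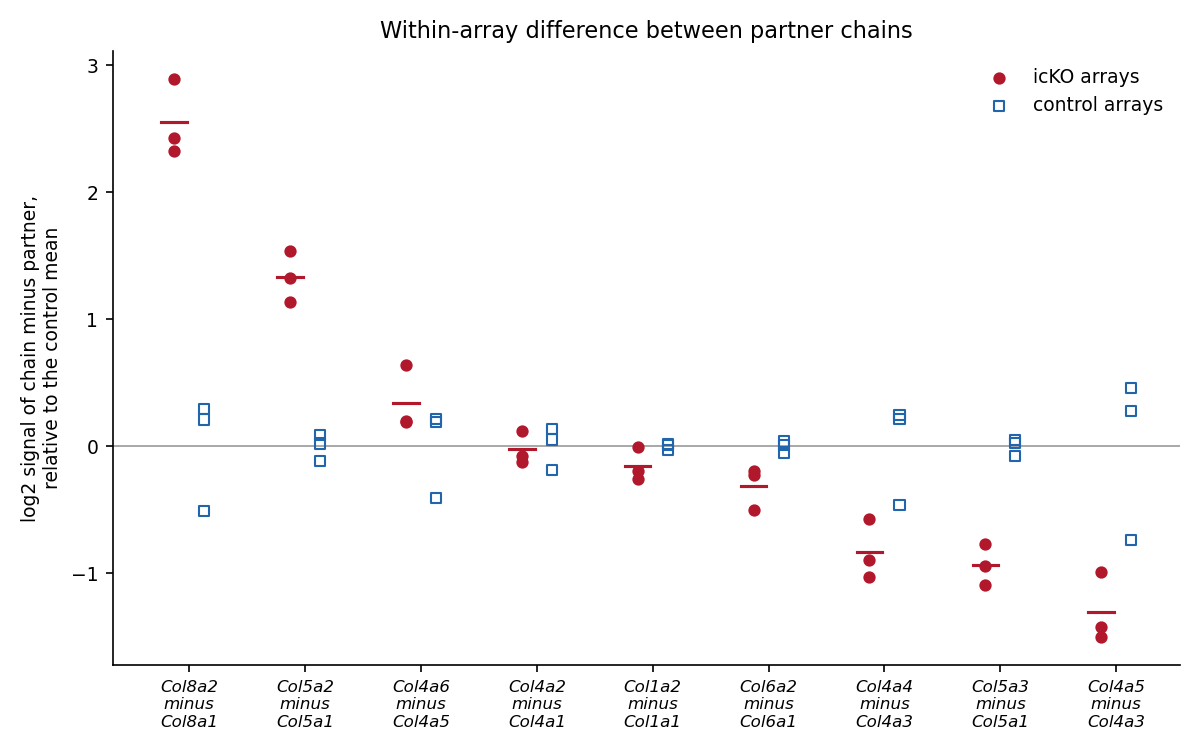
Log2 signal of a chain minus that of its partner on each array, relative to the control mean of the pair. Filled circles are icKO arrays with a bar at their mean, and open squares are control arrays. Col8a2 minus Col8a1 and Col5a2 minus Col5a1 lie above controls, Col5a3 minus Col5a1 lies below, and Col1a2 minus Col1a1 and Col4a2 minus Col4a1 overlap.

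TEAD factors bind the motif CATTCC, and it was searched on both strands in the RefSeq promoter windows, 250 bases before to 50 after each start (GRCm38.p6). Windows were present for 35 of the 44 genes. The motif was in a window of 5 of the 35, Col3a1, Col6a2, Col18a1, Col4a6 and Col20a1, which is 14.3%, against 16.6% of all genes with a window and 14.7% of all windows. Of these 5 genes, Col3a1 and Col18a1 rose, and Col6a2, Col4a6 and Col20a1 did not pass. A match is a description and not a binding site. The 250 bases before the start are given 5′ to 3′ for a gene that was dark in controls and bright in icKO hearts (Col8a2, chr4:126286544-126286793, plus strand) and for the 2 genes that both rose and hold the motif (Col3a1, chr1:45311288-45311537, plus strand, and the inner start of Col18a1, chr10:77113706-77113955, minus strand). Capitals mark the motif on either strand, at 168 bases before the start in Col3a1 and at 104 and 54 bases before it in Col18a1. The letters are not in the Col8a2 stretch.
Col8a2: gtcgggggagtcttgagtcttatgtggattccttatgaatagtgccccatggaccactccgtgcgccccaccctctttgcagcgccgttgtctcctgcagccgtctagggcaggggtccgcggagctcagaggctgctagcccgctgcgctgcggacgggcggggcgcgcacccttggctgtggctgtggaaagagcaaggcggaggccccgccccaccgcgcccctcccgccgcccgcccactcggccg
Col3a1: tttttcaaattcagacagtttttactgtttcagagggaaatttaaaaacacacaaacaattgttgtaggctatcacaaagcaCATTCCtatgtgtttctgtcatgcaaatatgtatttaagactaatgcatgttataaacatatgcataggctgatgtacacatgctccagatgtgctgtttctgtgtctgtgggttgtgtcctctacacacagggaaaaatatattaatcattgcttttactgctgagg
Col18a1: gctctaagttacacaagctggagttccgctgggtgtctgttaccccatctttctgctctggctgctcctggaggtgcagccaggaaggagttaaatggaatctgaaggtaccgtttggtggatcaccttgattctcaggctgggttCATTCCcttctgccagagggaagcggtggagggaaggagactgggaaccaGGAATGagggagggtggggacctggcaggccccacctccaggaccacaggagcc

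Genes that build, bind and break down collagen were counted from lists, in the same fit, where 16.0% of all features were higher and 28.7% lower. Nothing is read from the numbers of falls in this paragraph and the next, since their shares lie under that 28.7%. Of 28 tested genes for collagen synthesis and crosslinking, 14 rose and 2 fell, with a median of 0.39. Loxl3 and Loxl1, lysyl oxidases that crosslink collagen, rose by 3.26 ± 0.23 and 1.65 ± 0.17 (SE), and Adamts2, which trims the amino end of procollagen, by 2.10 ± 0.17 (adjusted p = 0.000319, 0.000974 and 0.000485). P3h4, part of the complex that hydroxylates collagen lysines, fell by 1.15 ± 0.10 (adjusted p = 0.000525), and P4ha1, a prolyl hydroxylase subunit, by 1.12 ± 0.23 (adjusted p = 0.0101). Serpinh1, the collagen chaperone, chosen after its value was seen, differed by -0.96 ± 0.34 (adjusted p = 0.0595).

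Of 13 tested genes for proteins that bind fibrils or the matrix around them, 10 rose and none fell (median 1.1). Comp, a cartilage and tendon protein that binds collagen fibrils, rose by 6.05 ± 0.26, Thbs1, a thrombospondin, by 4.18 ± 0.22 and Postn, a matricellular protein, by 4.49 ± 0.27 (SE; adjusted p = 9.67e-05, 0.000151 and 0.000200). Of 7 tested receptors, 4 rose and 1 fell. Itga11, a fibrillar collagen receptor of fibroblasts, rose by 1.61 ± 0.21, and the receptor Ddr1 by 0.84 ± 0.13 (adjusted p = 0.00211 and 0.00350). Itga1, which prefers basement membrane collagen, fell by 0.73 ± 0.19 (adjusted p = 0.0213), but did not pass under median (-0.58) or spike-in (-0.31) scaling. Of 10 tested genes for breakdown and its inhibitors, 6 rose and 1 fell. The inhibitor Timp1 rose by 3.58 ± 0.42, Mmp3 (stromelysin-1) by 3.51 ± 0.34 and Mmp2 (gelatinase A) by 1.84 ± 0.20, while the membrane-bound Mmp15 fell by 1.81 ± 0.22 (adjusted p = 0.00143, 0.000760, 0.00104 and 0.00163).

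**Figure D5:**
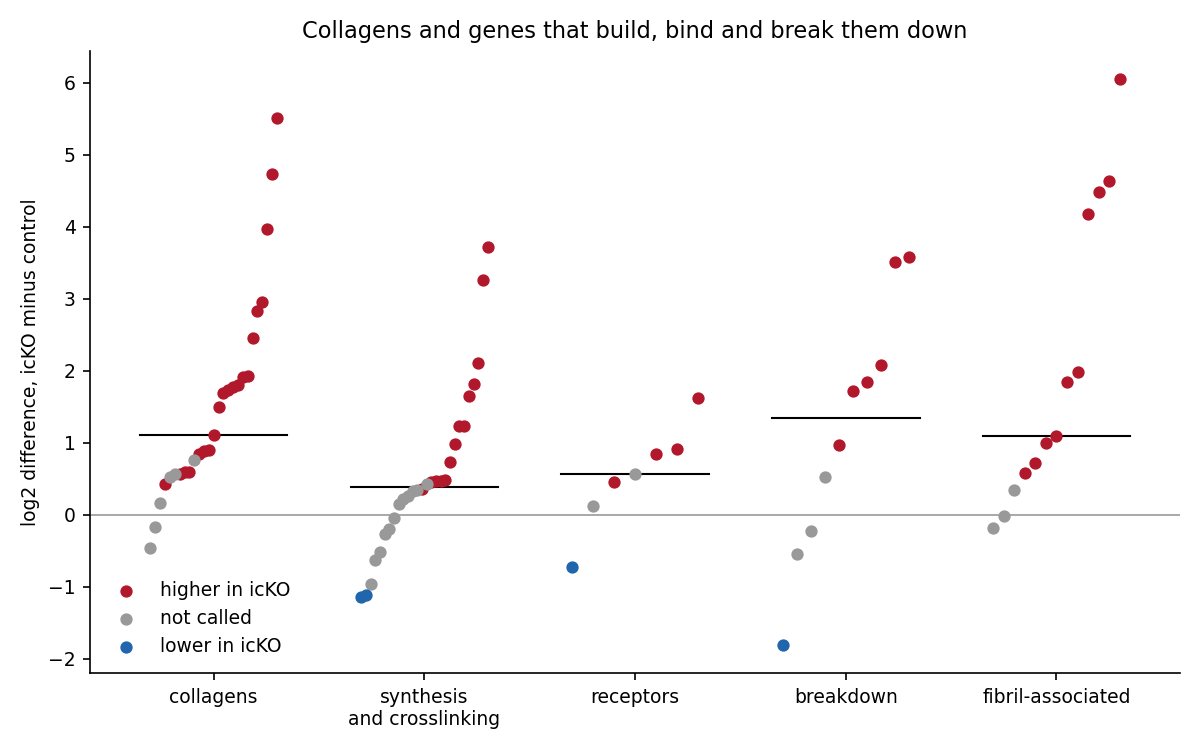
Log2 difference (icKO minus control) of every tested gene among the collagens and among 4 lists of genes that build, bind or break down collagen. Points are genes in ascending order, coloured by call, and bars are medians. Of the collagens 21 of 27 are higher and none lower, while the synthesis and crosslinking list has 14 higher and 2 lower among 28.

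Markers of cells that the ventricle can hold were counted beside the collagens, where 16.0% of all features were higher and 28.7% lower. Their sums are led by the brightest probes. Of 10 fibroblast markers other than collagens, 5 rose and 1 fell (under the spike-in scale 8 and 1), and their summed level was 901 to 961 in icKO and 436 to 643 in control hearts. Of 7 markers of activated fibroblasts, 5 rose and none fell under each of the 4 scalings, with sums of 39.3 to 47.8 in icKO and 15.0 to 38.6 in control hearts, and Postn is counted both here and among the fibril proteins. Acta2 and Fap were not called and differed by -0.77 and -0.22, and were named after their values were seen. Of 5 tested macrophage markers, 4 rose (sums of 51.6 to 67.5 in icKO and 24.9 to 33.0 in control hearts). Of 7 tested cartilage markers, 4 rose under each of the 4 scalings, with sums of 89.7 to 153 in icKO and 2.30 to 3.89 in control hearts. Comp made up most of the icKO sum, and without it, as chosen after seeing the data, the sums were 20.8 to 29.8 in icKO and 1.20 to 2.41 in control hearts. These were Comp, Cilp, Fmod and Sox9, and Comp and Fmod are counted among the fibril proteins too. Acan, the cartilage proteoglycan, Chad and Cilp2 were not called and differed by -0.17, -0.54 and -0.26. Sox9, Acan, Chad and Cilp2 were singled out after their values were seen. Cnmd, Hapln1, Matn1 and Matn3 were not well above background. Of 8 endothelial markers, none rose and 3 fell, against 1 and none with spike-in scaling, with sums of 301 to 449 in icKO and 407 to 441 in control hearts. Nothing is read from the falls in this list and the next, given the 28.7% of all features called lower. Mural cell markers (smooth muscle, pericyte) were split, 2 of 7 rising and 2 falling (1 under each of the other 3 scalings), with sums of 50.9 to 57.4 in icKO and 38.8 to 49.8 in control hearts, and 1 of 4 tested epicardial markers rose (4.19 to 8.04 in icKO and 2.80 to 5.50 in control hearts). Of 4 tested Schwann cell markers, 1 rose and 1 fell (none under the other 3 scalings), with sums of 2.38 to 2.82 in icKO and 2.22 to 2.41 in control hearts. The part of these cell types in the collagen differences was not tested.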

How the data were processed

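Total RNA of heart ventricles was labelled with Cy3, per the labels' protocols. The scanner files deposited by the authors give intensity per spot. Per the file headers, Agilent Feature Extraction (11.0.1.1, array design 028005) subtracted background and detrended within each array, while the submitters' processing notes name version 9.1. A value table from the authors, linear intensity with column medians of 18.37 to 18.47 and no stated method, served as an alternative.

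Processed signals were put on a log2 scale and shifted so that the 75th percentile of non-control probes was 0. Outlier spots were dropped before averaging the spots of a probe. A probe was kept (26152 of 55681) if it was well above background on every array of either group, and the brightest stands for its gene. RefSeq accessions named 26582 probes. Groups were compared with limma 3.58.1 in R 4.3.3 (lmFit, eBayes; Benjamini-Hochberg over 22278 features). For "at least" folds, a dim control array was raised to the faintest signal that counted there as well above background, where that was higher. The faintest such signal is the lowest limit that could be taken, so a stricter limit could give smaller folds. Normexp used the median spot signal, since the files hold no mean signal. Spike-in scaling used spike-in control probes above background on all arrays.

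The members and lists were chosen with earlier results of these data known. Any collagen gene could be named, and from each list up to 3 higher and 3 lower genes with the smallest p. The labels call the samples biological replicates. The steps were tested on simulated data.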

Additional observations from a re-analysis of the deposited data

How the results depend on the processing

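The number of arrays (3 per group), signal near background and the scaling limit these values: genes that were dim in controls have uncertain sizes. Of the 21 collagens that rose, 11 were called under all alternatives that gave them a value. The count of 21 was 15 (of 42 tested, no filter) to 24 under the other alternatives, except 11 with a minimum fold change of 1.5, and 18 to 20 without single arrays, and none was called lower under any. With that minimum, 0 basement membrane, 0 multiplexin, 0 beaded filament and anchoring and 0 transmembrane genes were called.

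The basement membrane count of 5 was 1 with no filter on dim probes, 3 with replicate number as a block and 3 to 4 without single arrays. The beaded filament and anchoring count of 2 was 1 with no filter and 1 with the replicate block. The transmembrane count of 1 was 0 with normexp, no filter, trend and robust eBayes and the replicate block, and 0 to 1 without single arrays. With probes above background on all 6 arrays, 2 of 3 FACIT genes and 1 of 1 network gene were called. Counting type VI, VII and XXVIII chains with the network class gave 4 of 5. Same-numbered arrays did not deviate together (correlations of -0.05, -0.13 and 0.0012). With 3 arrays per group this cannot exclude that the numbers pair the hearts. With the replicate block 17 collagens were called. The longer motif ACATTCC was in 1 of 35 promoter sets. The receptor list's fall was 0 with median and spike-in scaling.

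Signs turned for Col15a1 without icKO replicate 2 (-0.15) or control replicate 2 (-0.17; range to 0.53 without single arrays), for Col20a1 with spike-in scaling (0.25) and the mean of its probes (0.10), for Col26a1 without control replicate 3 (0.49; down to -0.95 without others), for Col4a6 with probes above background on all 6 arrays (-0.065) and for Tead1 with spike-in scaling (0.023). Among partner chains, Col4a2 against Col4a1 ranged from -0.119 to 0.043 without single arrays. With normexp, Col4a4 against Col4a3 was 0.18, Col4a6 against Col4a5 -0.37, Col4a5 against Col4a3 -0.20, Col5a2 against Col5a1 0.30 and Col8a2 against Col8a1 0.32, and the mean of the probes gave Col4a6 against Col4a5 -0.070. Over all features, 3573 were higher and 6401 lower, against 6997 and 1777 with spike-in scaling, 4398 and 3657 with median scaling, 2127 and 3996 with no filter and 889 and 1112 with the minimum fold change. The cause of these shifts was not tested, except that no filter means 49244 features tested and the minimum fold change is a stricter threshold.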
